A study of Homo sapiens with 12 samples.

Results

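Givinostat plus sorafenib, called the combination here, was compared with control in L-540, an established Hodgkin lymphoma cell line. The genes described are those whose tested probe was detected on all 3 arrays of either group, which were 7612 of the 8079 genes tested. Givinostat was given at 100 nM and sorafenib at 5 µM in culture medium for 24 hours, and the control cells received neither drug; the labels name no vehicle. Each group had 3 bead arrays, lettered A, B and C, and the series holds 12 arrays with those of each drug alone. The labels do not say whether the letters mark separate cultures, so the p-values rest on the scatter of these arrays alone, which may be of technical origin. A probe counts as detected when its deposited detection score is above 0.95. Of the 7612 genes, 6639 were detected on all 6 arrays, 210 on all 3 combination arrays but not all control arrays, and 763 on all 3 control arrays but not all combination arrays.

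Givinostat inhibits histone deacetylases, enzymes that remove acetyl groups from histones and other proteins, and sorafenib inhibits RAF, VEGF receptor and other kinases. In the integrated stress response, phosphorylation of the initiation factor eIF2 raises translation of the transcription factor ATF4, which then activates genes for amino acid supply and for stress signalling. Glycolysis genes are targets of the hypoxia-inducible factor and MYC, and sterol synthesis genes are targets of the SREBP factors. In Hodgkin lymphoma the tumour cells secrete and receive many cytokines and commonly show active JAK-STAT and NF-kB signalling.

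The promoter windows of 4 genes that changed are shown because their pathways, described further on, have a known DNA element. Genes without a match upstream of the start were passed over, so the matches in these windows support nothing. HK2 and PGK1 fell in all 12 fits without 1 array and ANKRD37 in 7 of them, and the capitals in them mark the core of the hypoxia response element, ACGTG, on either strand. AARS1 rose, a call that held in 2 of the 12 fits, and the capitals in it mark the element bound by ATF4 with C/EBP partners, TGATGNAA, on either strand. The sequences are 120 bases each from RefSeq (GRCh38.p14), upstream of the annotated gene start, read along the gene's strand. They are chr2:74833994-74834113 (plus strand) for HK2, chrX:78103998-78104117 (plus) for PGK1, chr4:185396613-185396732 (plus) for ANKRD37 and chr16:70289637-70289756 (minus) for AARS1.
HK2: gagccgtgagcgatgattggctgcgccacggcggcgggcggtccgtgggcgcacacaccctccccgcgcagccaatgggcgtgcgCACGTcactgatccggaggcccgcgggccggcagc
PGK1: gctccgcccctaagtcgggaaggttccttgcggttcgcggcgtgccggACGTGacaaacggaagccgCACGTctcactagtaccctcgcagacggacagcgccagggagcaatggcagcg
ANKRD37: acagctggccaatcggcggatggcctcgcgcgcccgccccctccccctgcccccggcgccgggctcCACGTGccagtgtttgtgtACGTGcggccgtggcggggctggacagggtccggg
AARS1: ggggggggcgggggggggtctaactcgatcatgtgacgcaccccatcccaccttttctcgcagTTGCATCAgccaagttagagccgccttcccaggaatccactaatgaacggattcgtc

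In the 300-base windows around all gene starts in the RefSeq table, ACGTG was present in 21.4% of 35116, and in 28.5% of the 6319 that belong to the genes described here. It was present in 18 of 32 windows of the glycolysis and hypoxia lists (56.2%) and in 7 of the 10 of those whose gene changed. TGATGNAA was present in 3.62% of all windows, in 1.8% of those of the genes described, in 10 of 38 windows of the ATF4, tRNA synthetase and amino acid lists, and in 1 of the 7 whose gene changed, AARS1. The sterol regulatory element, searched as TCACNCCAC, was present in 1.13% of all windows, in 1.08% of those of the genes described, and in 0 of the 22 windows of the sterol and fatty acid synthesis lists. One spelling per element was searched on both strands, after the values were known. ACGTG lies within CACGTG, the E-box of MYC and other factors, as the ANKRD37 window shows. A match is a description of letters and not of binding.

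The 6 arrays were not alike in quality. Median raw intensity was 418.1 to 579.3 on 11 of the 12 arrays of the series and 681.1 on combination B, where 22.4% of probes were detected against 24.6% to 30.9% elsewhere. The level at the detection limit was 7.21 on combination B and 6.61 to 6.98 on the other arrays (log2 normalized intensity). Of the 763 genes detected on all control arrays but not on all combination arrays, 519 were detected on combination A, 611 on combination C and 129 on combination B. The total counts below are therefore given for genes detected on all 6 arrays too, and calls with the fits that leave out 1 array at a time. Counts per list cover all genes described. Where genes detected in 1 group only add to a printed list count, the count over genes detected on all 6 arrays follows. The control and combination arrays carried the markers of the line: of 9 Hodgkin line markers 8 were detected on all 6 arrays, among them TNFRSF8 (CD30). Of the T cell markers with a probe, 2 of 9 were detected on all 6 arrays (CD4 and CD2) and 5 on none, CD3D, CD3G, LCK and ZAP70 among them. Of 6 B cell markers, BLK was detected on all 6 arrays and CD79B, PAX5 and CD22 on none. Of 7 myeloid markers, CSF1R was detected on all 6 arrays, CD68 and FCGR3A on 5, and LYZ, ITGAM and MPO on none. No fibroblast, endothelial or epithelial marker was detected on all 6, and all 5 epithelial markers were detected on none. None of the markers of these other cell types that were tested passed between combination and control (CD4 0.03, CD2 0.51, BLK -0.18, CSF1R 0.40, CD68 0.50 and FCGR3A 0.89, limma adjusted p of 0.111 or more), and their part in the results was not tested.

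Among the 7612 genes, 561 (7.37%) changed with the combination at a Benjamini-Hochberg adjusted p under 0.05 in limma: 323 rose (4.24%) and 238 fell (3.13%), and for 161 (2.12%) the change was at least 2-fold. Over all 8079 genes tested the shares were 6.99% changed, 4.02% higher, 2.97% lower and 2.02% with at least 2-fold. Of the 6639 genes detected on all 6 arrays, 487 (7.34%) changed: 298 rose (4.49%) and 189 fell (2.85%), and 100 (1.51%) did so at least 2-fold. The median log2 change was -0.03 over the 7612 genes and 0.00 over the 6639. Detection in 1 group only selects for a difference in that direction: of the 763 genes of control only, 681 had a negative change and 82 a positive one, and of the 210 of combination only, 206 had a positive one and 4 a negative one. The counts among them (25 higher, 49 lower) therefore support nothing. The values of all 561 genes did not overlap between groups, which was also so for 30.3% of the 7612 genes. In 12 further fits, each without 1 of the 12 arrays, 149 of the 561 calls (107 higher, 42 lower) held in every fit, and all 561 kept their direction. The number of genes that changed was 362, 197 and 212 without control A, B and C, and 369, 241 and 285 without combination A, B and C.

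**Figure D1:**
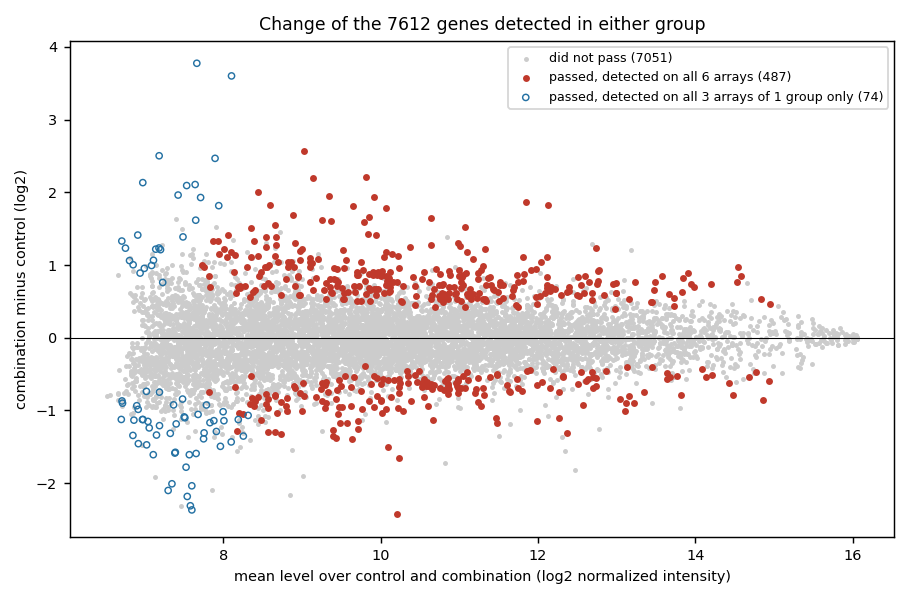
Mean level over the control and combination arrays (log2 normalized intensity) on the x axis and combination minus control (log2) on the y axis for each of the 7612 genes. Grey points did not pass the test, red points are the 487 that passed and were detected on all 6 arrays, and open blue circles are the 74 that passed and were detected on all arrays of 1 group only, which lie at low levels.

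MTAP and COBLL1 had the largest rises, and neither probe was detected on a control array. MTAP, the phosphorylase that returns methylthioadenosine to methionine, read 6.52, 6.26 and 6.12 on control A, B and C and 8.93, 10.41 and 10.36 on combination A, B and C (log2 normalized intensity, as are all levels below). The groups lay far apart, with combination A the lowest of its group. MTAP was at least 8.64-fold higher (n = 3 arrays per group; limma adjusted p = 8.47e-04). COBLL1, which encodes a protein with an actin-binding domain, read 5.77, 5.81 and 5.74 on the control arrays and 8.41, 10.25 and 9.98 on the combination arrays. It was at least 6.76-fold higher (limma adjusted p = 0.00313). Both calls held in all 12 fits without 1 array. In these bulk samples more cells with a transcript and more transcript per cell cannot be told apart.

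TNFRSF21, which encodes death receptor 6 of the TNF receptor superfamily, read 7.06, 8.37 and 7.80 on the control arrays and 10.00, 10.38 and 10.55 on the combination arrays. It was detected on all 6, and its control values were the more scattered. The rise was 2.56 ± 0.31 (log2 difference ± SE, n = 3 arrays per group, as for all differences below; 5.92-fold, limma adjusted p = 0.00198), the largest among genes detected on all 6 arrays. The long non-coding RNA gene LINC01727 rose from 7.88, 7.79 and 8.45 to 9.98, 10.33 and 10.41 (2.20 ± 0.19, 4.59-fold). SH3RF2, a gene of an SH3 and RING domain protein, rose from 8.47, 8.58 and 9.06 to 10.72, 10.87 and 11.14 (2.21 ± 0.32, 4.61-fold). RIPOR2, a regulator of lymphocyte polarity, rose from 7.44, 7.64 and 7.23 to 9.46, 9.39 and 9.45 (2.00 ± 0.21, 3.99-fold). In these 4 genes every combination array lay above every control array by more than the spread within either group, and the calls held in all 12 fits.

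The other largest rises were at low levels. The extracellular matrix gene TNC was at least 3.12-fold higher and the tested ANKRD22 probe at least 2.38-fold higher, neither probe being detected on a control array; another ANKRD22 probe was detected on 1 of them. LOC101927822 (2.47 ± 0.32), the delta-globin gene HBD (2.11 ± 0.44), ANKRD29 (2.09 ± 0.21) and the caveolin gene CAV1 (1.96 ± 0.53) were detected on 1 of the 3 control arrays. Among these, TNC lost its call without control C (adjusted p = 0.0528), HBD held in 7 of the 12 fits (highest adjusted p 0.0605, without control C) and CAV1 in 3 (0.15, without control C), while LOC101927822, ANKRD22 and ANKRD29 held in all 12. A second CAV1 probe gave 0.59. With undetected control arrays set to their detection limit, LOC101927822 was 4.49-fold higher, HBD 3.6-fold, ANKRD29 3.37-fold and CAV1 2.92-fold.

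LTA, which encodes the cytokine lymphotoxin alpha, had the largest fall. It read 11.82, 10.99 and 11.44 on the control arrays and 9.83, 8.40 and 8.74 on the combination arrays. All 6 arrays detected it, and the highest combination value, on array A, lay below the lowest control value. The fall was -2.42 ± 0.42 (5.36-fold lower, limma adjusted p = 0.00943) and held in all 12 fits. PRKCH, which encodes the eta isoform of protein kinase C, read 8.97, 8.76 and 8.62 on the control arrays and 6.60, 6.24 and 6.40 on the combination arrays. None of the latter was detected, and PRKCH was at least 3.58-fold lower (limma adjusted p = 0.00118), in all 12 fits.

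The transcription factor gene ATF5 was detected on all 6 arrays and read 11.39, 10.84 and 10.92 in control and 10.23, 9.04 and 8.94 in combination. Its fall was -1.65 ± 0.34 (3.13-fold lower, limma adjusted p = 0.0199) and was lost without control A, control C, combination B or combination C (highest adjusted p 0.0624). The other largest falls were of probes detected on no or 1 combination array. S100P, a calcium-binding protein gene, and the olfactory receptor gene OR3A1 were each at least 2.65-fold lower, and FOSL1, an AP-1 transcription factor gene, at least 1.96-fold lower. NCKIPSD (-2.04 ± 0.27), the protein kinase A regulatory subunit gene PRKAR1B (-2.31 ± 0.45), the immune-inhibitory surface protein gene CD200 (-2.18 ± 0.45), the mRNA export gene ALYREF (-1.78 ± 0.41), the glycogen branching enzyme gene GBE1 (-1.61 ± 0.24) and the endolysosomal channel gene TPCN2 (-1.59 ± 0.40) were detected on 1 of the 3 combination arrays. Of these, S100P, NCKIPSD and GBE1 held in all 12 fits. FOSL1 lost its call without control B (adjusted p = 0.052), PRKAR1B without control B, control C or combination B (highest 0.0607), OR3A1 without control B, combination A or combination B (highest 0.0865), CD200 without control A, control B, control C or combination B (highest 0.0586), ALYREF in 5 fits (highest 0.0854, without control B) and TPCN2 in 8 (highest 0.129, without control B). A second CD200 probe gave -0.49. With undetected combination arrays set to their detection limit, NCKIPSD was 2.8-fold lower, PRKAR1B 3.01-fold and CD200 3.06-fold. On the same basis ALYREF was 2.58-fold lower, GBE1 2.48-fold and TPCN2 2.18-fold.

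**Figure D2:**
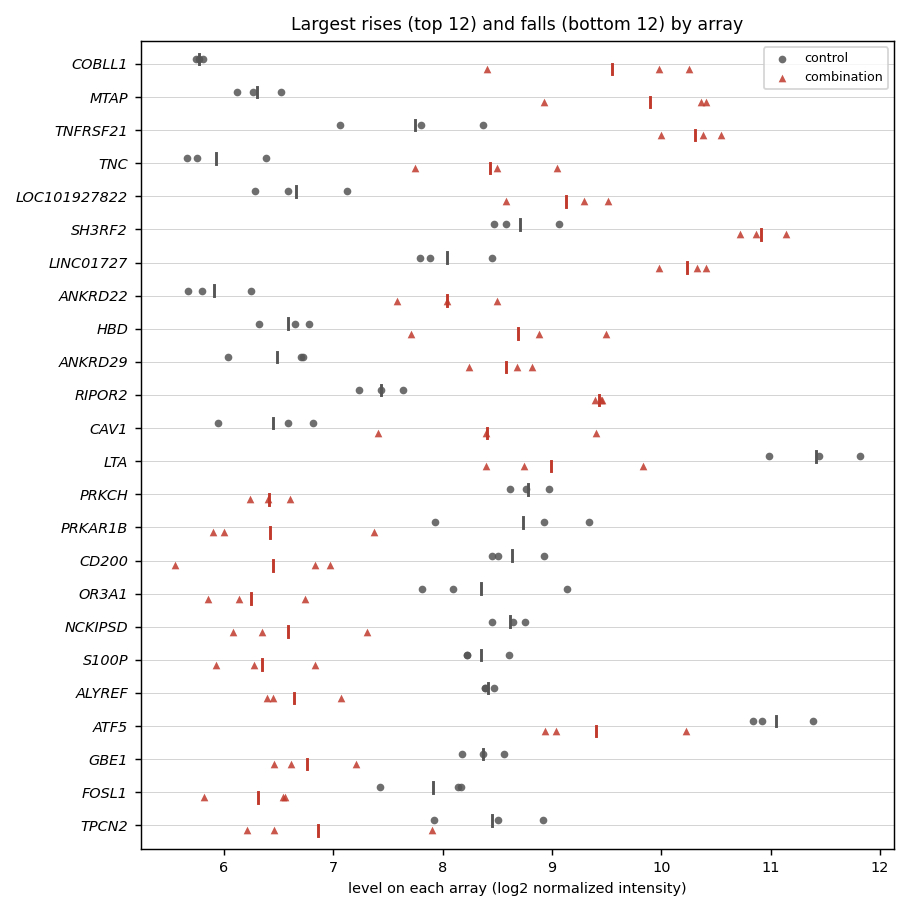
Level on each array (x axis, log2 normalized intensity) for the 12 largest rises and, below them, the 12 largest falls, with control arrays as grey circles, combination arrays as red triangles and a bar at each group mean. The groups do not overlap in any of the 24 genes, and combination A is the array nearest to control for COBLL1, MTAP and LTA.

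Some further genes detected on all 6 arrays changed strongly and held in all 12 fits; these were chosen after their values were seen. KIR2DL4, a receptor gene of natural killer cells, read 11.25, 10.59 and 10.92 in control and 13.03, 12.64 and 12.68 in combination (1.86 ± 0.20, 3.64-fold higher). Whether the KIR2DL4 probe also reads other genes of its family was not tested. TPM1, a tropomyosin gene, rose by 1.82 ± 0.25, ADA2, an extracellular adenosine deaminase gene, by 1.69 ± 0.22, and the phosphatase gene PPM1M by 1.61 ± 0.18. Falls among them were those of the mucin gene MUC1 (-1.35 ± 0.21), the nuclear pore gene NUP188 (-1.33 ± 0.21), SLC5A6, the transporter gene for biotin and pantothenate (-1.14 ± 0.15), and SPHK1, a sphingosine kinase gene (-1.04 ± 0.16).

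Of 22 genes of glycolysis and glycogen synthesis, 9 fell, 0 rose and 13 did not pass, with a median log2 change of -0.45 against -0.02 over all genes tested. All 9 are given, of which TPI1, GPI, PGK1, PGAM1 and LDHA lie outside the rule for named genes. TPI1, triosephosphate isomerase, read 15.21, 15.35 and 15.30 in control and 14.44, 14.38 and 14.48 in combination, a fall of -0.85 ± 0.11 (1.81-fold lower, limma adjusted p = 0.003). HK2, hexokinase 2 at the entry of the pathway, read 9.28, 9.47 and 9.15 in control and 8.52, 7.82 and 7.66 in combination. Its fall was -1.30 ± 0.21 (2.46-fold lower, limma adjusted p = 0.00659), and a second, dimmer HK2 probe gave -0.55. For both genes every combination array lay below every control array, and for HK2 combination A lay nearest to control.

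Further along the pathway, GPI, the isomerase after hexokinase, fell by 0.79 ± 0.13, and PGK1, the first ATP-forming kinase, fell by 0.84 ± 0.14, where a second probe gave -1.30. PGAM1, the mutase after PGK1, fell by 0.57 ± 0.13, and both of its probes gave -0.57. ENO2, an enolase, fell by 1.17 ± 0.29 and LDHA, the lactate dehydrogenase subunit that forms lactate, fell by 0.60 ± 0.16. Both enzymes of glycogen synthesis in the list also fell, GYS1 (-0.86 ± 0.21) and GBE1 (given above). The limma adjusted p-values of these genes were 0.00454 to 0.0482. HK2, GPI, TPI1, PGK1 and GBE1 held in all 12 fits, whereas LDHA held in 0 (highest adjusted p 0.143, without control B), ENO2 in 5 (0.114, without combination B), GYS1 in 6 (0.124, without control B) and PGAM1 in 7 (0.0964, without control C). The list kept at least 5 calls in each fit, and its median lay between -0.55 and -0.44.

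At other steps no change passed, and the genes given for them also lie outside that rule. GAPDH had a change of -0.04 ± 0.10 and ENO1, the other enolase measured, one of -0.10 ± 0.11 (limma adjusted p = 0.851 and 0.605), with signs that turned with the scaling. The aldolase ALDOA (-0.28 ± 0.16), the pyruvate kinase PKM (-0.39 ± 0.18) and the phosphofructokinase subunit PFKL (-0.36 ± 0.21) did not pass either. The glucose transporters SLC2A1 and SLC2A3 had -0.22 ± 0.16 and -0.22 ± 0.22. PFKFB4, whose product sets the level of fructose 2,6-bisphosphate, read 13.62, 13.26 and 13.27 in control and 12.64, 10.95 and 11.08 in combination. Its value of -1.82 ± 0.53 was the lowest of the list, but with combination A far from B and C it did not pass (limma adjusted p = 0.0646).

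**Figure D3:**
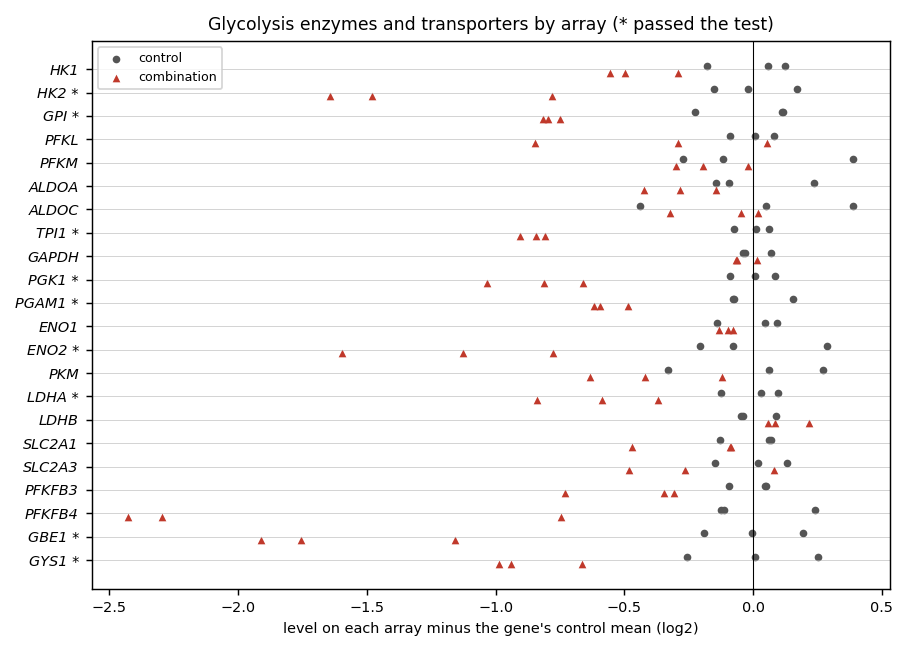
Level on each array minus the gene's control mean (x axis, log2) for the 22 glycolysis and glycogen genes, with control arrays as grey circles and combination arrays as red triangles; an asterisk marks the 9 that passed. The combination arrays of HK2, GPI, TPI1, PGK1 and GBE1 lie left of all control arrays, while those of GAPDH and ENO1 lie among them.

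Of 15 other hypoxia-inducible genes, ANKRD37 and the transcription factor gene ZNF395 fell, 0 rose and 13 did not pass (median -0.45). ANKRD37 read 13.03, 12.93 and 13.09 in control and 12.29, 11.34 and 11.49 in combination, a fall of -1.31 ± 0.30 (2.48-fold lower, limma adjusted p = 0.0289). ZNF395 fell by 0.87 ± 0.19 (limma adjusted p = 0.0238). Each held in 7 of the 12 fits, with highest adjusted p-values of 0.0926 for ANKRD37 without combination B and 0.0735 for ZNF395 without control C, and without control A 0 calls of this list were left. VEGFA, the vascular growth factor gene and outside the rule for named genes, had a change of -0.08 ± 0.22 that did not pass. In mitochondria, 0 of 21 genes of the tricarboxylic acid cycle passed (median -0.13). Of 34 respiratory chain genes, 2 fell: UQCRB, a subunit of complex III (-0.85 ± 0.13, all 12 fits), and NDUFB1, a subunit of complex I (-1.31 ± 0.28, detected on 2 of the 3 combination arrays and held in 8 fits, highest adjusted p 0.0793 without control C). The median of that list was -0.10, and among the 33 genes detected on all 6 arrays 1 fell.

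Lipid synthesis genes fell in part. FASN, the fatty acid synthase gene, read 13.52, 13.65 and 13.68 in control and 12.55, 12.63 and 12.64 in combination, with little scatter in either group. Its fall of -1.01 ± 0.11 (2.01-fold lower, limma adjusted p = 9.75e-04) held in all 12 fits. ACACA, the acetyl-CoA carboxylase before it, fell by 0.54 ± 0.13 and held in 3 (highest adjusted p 0.121, without control B). In the fatty acid synthesis list of 8 genes these 2 fell, 0 rose and 6 did not pass (median -0.22). Of 17 genes of sterol synthesis and uptake, 4 fell, 0 rose and 13 did not pass (median -0.45). INSIG1, which holds the SREBP escort protein in the endoplasmic reticulum, read 12.89, 12.53 and 13.04 in control and 11.94, 11.58 and 11.62 in combination, a fall of -1.10 ± 0.19 (limma adjusted p = 0.0099) seen in all 12 fits, and a second probe gave -1.15. FDPS, farnesyl diphosphate synthase (-0.83 ± 0.20), EBP (-0.70 ± 0.16) and the reductase gene DHCR7 (-0.69 ± 0.19) fell with limma adjusted p-values of 0.0305 to 0.0489. They held in 5, 6 and 2 of the fits, with highest adjusted p-values of 0.115, 0.101 and 0.133, each without control C. No promoter window of these 2 lists held the sterol element as searched. In fatty acid oxidation, ECHS1, the short-chain enoyl-CoA hydratase, fell (-0.75 ± 0.13) and ETFB, an electron transfer subunit, rose (0.49 ± 0.12, held in 5 fits, highest adjusted p 0.108 without combination C), and 14 of 16 did not pass.

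Stress genes downstream of ATF4 moved in both directions. Of 14 genes of that list, 3 rose, 1 fell and 10 did not pass, and the median was 0.29. TRIB3, a pseudokinase that restrains ATF4, read 11.65, 11.08 and 10.88 in control and 12.76, 13.17 and 13.17 in combination, a rise of 1.83 ± 0.26 (3.56-fold, limma adjusted p = 0.00352) that held in all 12 fits. DDIT3, the transcription factor CHOP, read 10.90, 9.92 and 10.11 in control and 11.89, 11.81 and 11.81 in combination. All combination arrays lay above the highest control array, A, and the rise was 1.52 ± 0.32 (2.87-fold, limma adjusted p = 0.0208). CEBPB, a C/EBP factor, rose by 0.77 ± 0.18. The member that fell was ATF5, described above. DDIT3 and CEBPB each held in 7 fits (highest adjusted p 0.0803 and 0.0952, both without control B), and without control C or combination B 1 call of this list was left.

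ATF4 itself read 13.58, 13.07 and 12.89 in control and 13.62, 13.47 and 13.47 in combination, so the groups overlapped. Its change of 0.34 ± 0.21 did not pass (limma adjusted p = 0.357), and a dimmer probe gave -0.36. Of 18 aminoacyl-tRNA synthetase genes, AARS1 for alanine (0.85 ± 0.23) and GARS1 for glycine (0.61 ± 0.15) rose and 16 did not pass (median 0.11). AARS1 read 14.63, 13.75 and 14.07 in control and 15.04, 14.94 and 15.03 in combination (limma adjusted p = 0.0467). Of 14 genes of amino acid synthesis and transport, CTH, the last enzyme of the route from methionine to cysteine, rose (0.99 ± 0.26, limma adjusted p = 0.0476) and 13 did not pass (median 0.31, 12 of 14 positive). AARS1 held in 2 fits (highest adjusted p 0.148, without control B), GARS1 in 6 (0.109, without control B) and CTH in 4 (0.149, without control C), so that without control B the synthetase list had 0 calls. Of 14 p53 targets, BTG1, an antiproliferative gene, rose (0.93 ± 0.18, lost without control B or control C, highest adjusted p 0.0598) and 13 did not pass (median 0.33). The shares of the amino acid and p53 lists that passed, 7.14% each, lay near the 7.37% of the 7612 genes.

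Some genes of protein folding and degradation fell. Of 21 cytosolic chaperone genes, 5 fell, 0 rose and 16 did not pass (median -0.28). STIP1, the co-chaperone that joins HSP70 to HSP90, read 13.45, 13.55 and 13.67 in control and 12.67, 12.80 and 12.81 in combination (-0.80 ± 0.12, limma adjusted p = 0.00527). HSPA8, the constitutive HSP70, fell by 0.78 ± 0.13, and a second probe gave -0.32. Both held in all 12 fits. HSPH1, a nucleotide exchange factor (-0.74 ± 0.15), DNAJA1, an HSP40 (-0.69 ± 0.16), and HSP90AB1, an HSP90 outside the rule for named genes (-0.51 ± 0.12), also fell, and held in 9, 7 and 6 fits with highest adjusted p-values of 0.0683 and 0.109 without control B and 0.102 without combination B. Of 29 proteasome genes, PSMB3, PSMB5, PSMC6 and PSMD2 fell, with log2 changes of -0.47 to -0.56, and 25 did not pass. The list had a median of -0.29 with 27 of 29 negative, but 0 of its 4 calls were left without control B.

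Among genes of the endoplasmic reticulum, CCPG1, a receptor for autophagy of that organelle, rose and HSPA5, its main HSP70 (BiP), fell, while 19 of 21 did not pass (median -0.22). With the 19 genes detected on all 6 arrays, 1 rose and 0 fell (median -0.18). CCPG1 read 9.30, 9.15 and 9.08 in control and 10.58, 11.29 and 11.01 in combination (1.78 ± 0.23, 3.43-fold, all 12 fits). HSPA5 read 7.96, 8.16 and 8.41 in control and 6.95, 5.81 and 7.04 in combination, close to the detection limit, with 2 of 3 combination arrays detected (-1.57 ± 0.37, limma adjusted p = 0.032). With the undetected array set to its detection limit, HSPA5 was 2.16-fold lower. Combination B was the lowest, and HSPA5 no longer passed when control A, B or C or combination B was left out (highest adjusted p 0.101, without control C). Of 27 genes of autophagy and lysosomes, ARSG, a lysosomal sulfatase, rose (1.82 ± 0.25, 3.54-fold, all 12 fits) and 26 did not pass. The metallothionein gene MT2A rose by 0.97 ± 0.18, also in all 12 fits, and the other 4 metallothioneins did not pass. KEAP1, which marks the antioxidant factor NRF2 for degradation, fell by 0.70 ± 0.18 and PRDX1, a peroxiredoxin, fell by 0.63 ± 0.16, each held in 4 fits (highest adjusted p 0.131 without control C and 0.13 without control B), and 16 of that list did not pass.

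Most growth genes did not pass the test. The share that passed was 17.2% in ribosome biogenesis, 16.2% in splicing and mRNA export and 11.4% in DNA replication, against 7.37% of the 7612 genes. It was 5.26% in G2/M and mitosis, 4.88% and 2.38% in mitochondrial and cytosolic ribosomal proteins and 2.56% in the translation factor list. Of 29 genes of ribosome biogenesis, 5 fell, 0 rose and 24 did not pass (median -0.33, 27 negative), with NOLC1, a nucleolar chaperone (-0.87 ± 0.19), as the largest fall. Others were POLR1C, a subunit of RNA polymerases I and III (-0.75 ± 0.19), the pseudouridylation factor NHP2 (-0.75 ± 0.15) and BYSL (-0.62 ± 0.13). Without control B none of these 5 calls was left (highest adjusted p 0.0903 for NOLC1). Of 42 cytosolic ribosomal protein genes RPL29 fell (-0.88 ± 0.14, both probes alike at -0.88 and -0.90, all 12 fits) and 41 did not pass (median 0.02). Of 41 mitochondrial ribosomal protein genes MRPL28 (-0.76 ± 0.15, 10 fits, highest adjusted p 0.0685 without control B) and MRPS26 (-0.69 ± 0.18, 3 fits, highest 0.117 without combination B) fell and 39 did not pass. The translation factor list held 39 genes, of which the one listed as EIF4A3 fell (-0.63 ± 0.15, 8 fits, highest 0.106 without control B) and 38 did not pass. Of 37 splicing and mRNA export genes 6 fell, 0 rose and 31 did not pass (median -0.24). Among the 36 detected on all 6 arrays, 5 fell. The 6 included ALYREF, HNRNPA1 (-1.13 ± 0.26, where a second probe gave -0.18), HNRNPM (-0.89 ± 0.24) and U2AF2 (-0.69 ± 0.18), and 0 of the 6 were left without control B.

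Of 35 DNA replication genes, 4 fell, with log2 changes of -0.52 to -0.89: UHRF1, which guides DNA methylation after replication, ORC1 of the origin complex, the polymerase gene POLE and the ligase gene LIG1. UHRF1 read 13.33, 13.69 and 13.67 in control and 12.32, 12.91 and 12.78 in combination (limma adjusted p = 0.024), and a second probe gave -1.86. The median of the list was -0.27, 31 did not pass, and 0 calls were left without control B. Of 38 genes of G2/M and mitosis, the phosphatase gene CDC25B (-0.54 ± 0.12) and the separase gene ESPL1 (-0.89 ± 0.20) fell and 36 did not pass (median -0.21, 33 negative). They held in 7 and 8 fits (highest adjusted p 0.0835 and 0.0927, without control B). SKP2, a ubiquitin ligase subunit that removes p27, fell by 0.57 ± 0.12 (7 fits, highest 0.0902 without control B). CDKN1A, which encodes p21, read 13.94, 13.45 and 13.42 in control and 14.25, 13.96 and 14.12 in combination. The groups did not overlap, but the change of 0.50 ± 0.20 did not pass (limma adjusted p = 0.157), nor did that of CDKN1B, p27 (0.15 ± 0.11), or of CCND2, cyclin D2 (0.14 ± 0.14). The uracil glycosylase gene UNG fell by 1.25 ± 0.27 (lost without control B, combination A or combination B, highest adjusted p 0.0658), and 22 of 23 DNA repair genes did not pass.

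The histone deacetylases, targets of givinostat, showed no change that passed: HDAC1 had -0.21 ± 0.13, HDAC2 0.23 ± 0.27 and HDAC3 0.17 ± 0.17, with overlapping groups, and 0 of 8 genes of the list passed. TBL1X, a subunit of the corepressor complex that holds HDAC3, rose from 11.81, 11.76 and 11.88 to 12.41, 12.52 and 12.61 (0.70 ± 0.11, limma adjusted p = 0.00684, all 12 fits). Of 17 listed replication-dependent histone genes, which supply new chromatin in S phase, 1 fell and 16 did not pass; all 17 were negative, with a median of -0.75. Of the 17, 7 were detected on all arrays of control only, and the 10 detected on all 6 arrays had a median of -0.91. The listed gene that passed was the linker histone gene H1-2, which read 11.40, 10.39 and 10.58 in control and 9.97, 9.60 and 9.77 in combination (-1.01 ± 0.24, limma adjusted p = 0.0345). It held in 7 fits (highest adjusted p 0.101, without combination B). The list does not hold 5 other clustered histone genes among those described, of which 4 were negative and 1 passed. This was H3C3, a core histone gene named after its values were seen, which read 7.57, 7.97 and 7.39 in control and 6.55, 5.91 and 6.11 in combination. No combination array detected it, and it was at least 1.63-fold lower (limma adjusted p = 0.0181, held in 9 fits, highest adjusted p 0.0729 without control B). H2AC25, the positive one, had 0.34 ± 0.27. Near-identical copies of core histone genes can share a probe, so single histone genes are uncertain. Of 7 replication-independent histone genes 0 passed (median -0.04).

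**Figure D4:**
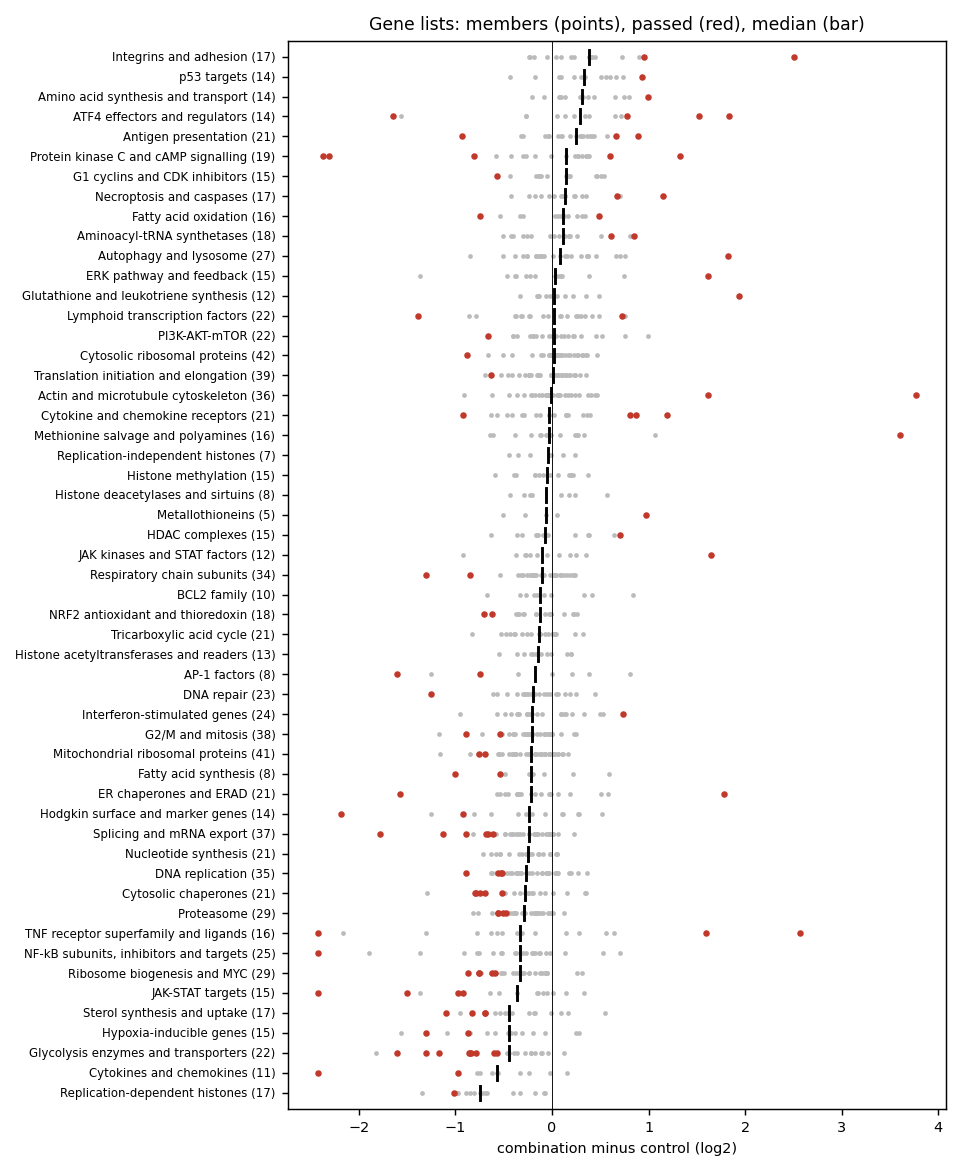
Combination minus control (x axis, log2) for the members of each gene list with at least 5 genes measured, ordered by median; the number of genes is in brackets, red points passed the test, and the black bar is the median. Replication-dependent histones, cytokines, glycolysis, hypoxia-inducible and sterol genes lie lowest, and adhesion, p53, amino acid and ATF4 genes highest. The place of the adhesion list depends on genes not detected on every array of both groups. Over genes detected on every control and combination array, the adhesion median was 0.21. It was 0.34 for p53, 0.31 for amino acid and 0.29 for ATF4 genes. Protein kinase C and cAMP signalling then had 0.29 and antigen presentation 0.22.

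Cytokine and JAK-STAT genes that changed included ligands, receptors and targets. Among ligands, LTA fell as given above and OSM, which encodes oncostatin M, read 10.68, 10.12 and 9.96 in control and 9.31, 9.23 and 9.29 in combination (-0.98 ± 0.18, limma adjusted p = 0.0124). Both held in all 12 fits, and 9 of 11 cytokine and chemokine genes did not pass (median -0.57). TNFSF13B, the B cell survival factor BAFF, rose from 8.74, 9.09 and 9.13 to 10.70, 10.68 and 10.36 (1.59 ± 0.15, 3.01-fold, limma adjusted p = 8.47e-04), also in all 12. Among receptors, IL18R1 for interleukin-18 (1.19 ± 0.21), IFNAR2 for type I interferon (0.87 ± 0.20) and IL7R for interleukin-7 (0.80 ± 0.21) rose, and IL2RA, the interleukin-2 receptor alpha chain CD25, fell (-0.92 ± 0.19). IL18R1 held in all 12 fits, IL2RA in 7 (highest adjusted p 0.0671, without combination B), IFNAR2 in 6 (0.0826, without control C) and IL7R in 1 (0.114, without combination B).

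STAT4, a transcription factor activated by interleukin-12, read 9.59, 9.82 and 10.05 in control and 11.53, 11.26 and 11.60 in combination. Its rise of 1.65 ± 0.17 (3.13-fold, limma adjusted p = 9.14e-04) held in all 12 fits, and the other 11 JAK and STAT genes did not pass. CISH, a feedback inhibitor induced by STAT5, read 11.10, 10.81 and 10.62 in control and 9.66, 9.25 and 9.10 in combination (-1.51 ± 0.24, 2.84-fold lower, limma adjusted p = 0.00659, all 12 fits). Of 15 JAK-STAT targets, CISH, LTA, OSM and IL2RA fell, 0 rose and 11 did not pass (median -0.36). Of 25 genes of the NF-kB subunit, inhibitor and target list, LTA was the one that passed (median -0.33, 22 negative). TNFRSF8, the Hodgkin marker CD30, read 10.27, 9.73 and 10.05 in control and 9.58, 9.03 and 9.54 in combination, and its change of -0.63 ± 0.20 did not pass (limma adjusted p = 0.0796). JUNB, an AP-1 factor strongly expressed in Hodgkin cells, read 13.90, 13.16 and 13.15 in control and 13.18, 11.69 and 11.58 in combination. Combination A lay among the controls, array A was the highest of its group in both, and the change of -1.25 ± 0.49 did not pass (limma adjusted p = 0.144). BATF, another AP-1 factor, fell by 0.74 ± 0.20 and held in 1 fit (highest adjusted p 0.124, without combination B).

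The share of kinase pathway genes that passed differed between lists. It was 6.67% in the ERK list, 4.55% in the PI3K-AKT-mTOR list and 26.3% in that of protein kinase C and cAMP signalling, against 7.37% of the 7612 genes. Genes detected in 1 group only add to the ERK share and to that of protein kinase C and cAMP signalling, so these shares support nothing. In the ERK pathway list, ETV5, an ETS factor induced by ERK signalling, rose from 6.78, 7.13 and 6.60 to 7.99, 8.54 and 8.83 (1.62 ± 0.29, limma adjusted p = 0.0106, detected on 1 of the 3 control arrays, all 12 fits), and 14 of 15 did not pass. The feedback genes DUSP6 and SPRY2 did not pass the detection filter. Of the kinases that sorafenib inhibits, 2 of 13 were measured and 0 passed. In the list of protein kinase C and cAMP signalling, PRKCQ, the T cell isoform of protein kinase C, fell (-0.81 ± 0.18) beside PRKCH and PRKAR1B, while PRKACB, a catalytic subunit of protein kinase A (1.32 ± 0.27), and the phospholipase gene PLCG2 (0.60 ± 0.12), outside the rule for named genes, rose. Among the 12 genes of this list detected on all 6 arrays, 2 rose and 1 fell, as PRKCH and PRKAR1B were detected on all arrays of control only. PRKCQ held in 8 fits, PRKACB in 9 and PLCG2 in 9 (highest adjusted p 0.0898 without control B, 0.059 without combination B and 0.0654 without control B). RPS6KB1, the S6 kinase gene, fell by 0.67 ± 0.17 and held in 3 fits (highest 0.123, without combination B), and 21 of 22 PI3K-AKT-mTOR genes did not pass.

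Beside TNFRSF21, most genes of cell death did not pass. The share that passed was 11.8% in the necroptosis and caspase list and 0 in the BCL2 family, against 7.37% of the 7612 genes. CASP1, the inflammatory caspase, read 7.30, 7.66 and 7.14 in control and 8.33, 8.65 and 8.57 in combination (1.15 ± 0.20, 2.22-fold, limma adjusted p = 0.00975, all 12 fits), and RIPK2, an adaptor kinase of NOD receptors, rose by 0.68 ± 0.16 (7 fits, highest adjusted p 0.109 without control B). The necroptosis genes RIPK3 (0.02 ± 0.26) and MLKL (-0.24 ± 0.33) had overlapping groups and did not pass, and of the list 15 of 17 did not. RIPK3 read 8.20, 8.09 and 7.78 in control and 8.22, 7.95 and 7.97 in combination. MLKL read 8.46, 7.84 and 7.89 in control and 6.95, 8.56 and 7.95 in combination, with combination A lowest and B highest of all 6. RIPK1 has no probe named here, and CASP8 was tested but was not detected on all arrays of either group.

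In the BCL2 family 0 of 10 genes passed (median -0.12). MCL1, an inhibitor of apoptosis, read 9.76, 9.94 and 9.72 in control and 9.74, 9.31 and 8.34 in combination, and its change of -0.68 ± 0.31 did not pass (limma adjusted p = 0.213), where a second probe gave 0.04. BCL2 (-0.08 ± 0.15, with 2 further probes at 0.31 and 0.25) and BCL2L1 (-0.15 ± 0.24, with a dimmer probe at -0.77) had overlapping groups. These values changed sign in some settings given in the closing section. BCL2L11 and TXNIP did not pass the detection filter.

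A few adhesion, lipid mediator and immune genes were higher. ITGB1, integrin beta-1, read 11.39, 11.62 and 11.50 in control and 12.28, 12.48 and 12.59 in combination (0.95 ± 0.13, 1.93-fold, limma adjusted p = 0.00308), and a second probe gave 0.71. RAPH1, an adaptor of lamellipodia, read 8.16, 8.76 and 8.40 in control and 9.68, 10.27 and 10.22 in combination (1.62 ± 0.22, 3.07-fold). ALOX5AP, which presents arachidonic acid for leukotriene synthesis, read 9.10, 8.58 and 9.17 in control and 10.86, 10.94 and 10.85 in combination (1.93 ± 0.17, 3.82-fold, limma adjusted p = 8.47e-04). All 3 held in all 12 fits. Of 17 adhesion genes ITGB1 and TNC rose and 15 did not pass (median 0.38). Among the 14 adhesion genes detected on all 6 arrays, 1 rose (median 0.21). Of 12 genes of glutathione and leukotriene synthesis ALOX5AP rose and 11 did not pass. In antigen presentation, HLA-G (0.89 ± 0.19, detected on 1 control array) and HLA-DOA (0.66 ± 0.16) rose and the thiol reductase gene IFI30 fell (-0.93 ± 0.22), while 18 of 21 did not pass and 0 calls were left without control B. Among the 20 genes of this list detected on all 6 arrays, 1 rose and 1 fell. HLA genes resemble each other in sequence, so the source of the HLA-G signal is uncertain. Of 24 interferon-stimulated genes GBP2 rose (0.74 ± 0.17, 8 fits, highest adjusted p 0.0924 without control B). Among 22 lymphoid transcription factor genes the homeobox gene HLX fell (-1.39 ± 0.34, 5 fits, highest 0.0992 without control A) and KLF6 rose (0.73 ± 0.19, 2 fits, highest 0.148 without control C). IRF4, a factor gene of activated B cells, was tested but was not detected on all arrays of either group.

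The combination was also set against each drug alone, to find where both drugs differed from one. Against givinostat 131 of the 7612 genes differed (1.72%): 76 were higher in the combination (0.998%) and 55 lower (0.723%). Against sorafenib 27 differed (0.355%), 15 higher (0.197%) and 12 lower (0.158%). Over all genes tested the shares were 1.68% against givinostat (0.953% higher, 0.730% lower) and 0.359% against sorafenib (0.186% higher, 0.173% lower). The count against givinostat was 14 without givinostat B, 60 without givinostat C, and 55, 60 and 47 without combination A, B and C. That against sorafenib was 0 without sorafenib A, sorafenib C or combination B, 7 without sorafenib B, 12 without givinostat C, and 9, 12 and 14 without control A, B and C, so no difference from sorafenib passed in all 12 fits. In the 3 limma fits with a count of 0, the genes at an unadjusted p under 0.05 numbered 1104 without sorafenib A, 1000 without sorafenib C and 824 without combination B. These comparisons share the combination arrays with the comparison against control, and the 3 comparisons of treated with control arrays share the control arrays, so they are set side by side and no agreement is read from them. Of the 561 genes that changed against control, 92 differed from givinostat alone and 21 from sorafenib alone, all in the direction away from control. The 561 were chosen on the same combination arrays, which favours a difference in that direction, so these counts support nothing. The 4 genes in both counts were MTAP, SBNO2, ATP2B1-AS1 and METTL1, named after their values were seen.

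MTAP was 3.16 ± 0.34 above givinostat alone (limma adjusted p = 0.00275) and 2.28 ± 0.34 above sorafenib alone (0.0271), and its probe was detected on 0 control, 2 givinostat, 3 sorafenib and 3 combination arrays. Against control, sorafenib alone was at least 1.78-fold higher and the combination at least 8.64-fold, and for givinostat the bound was under 1, so no fold is given. ATP2B1-AS1 and METTL1 differed from givinostat by 1.00 and -0.59 and from sorafenib by 1.51 and -0.69. SBNO2, detected on 0 combination arrays, was at least 1.79-fold lower than with givinostat and at least 1.55-fold lower than with sorafenib. A first set of genes differed from givinostat and not detectably from sorafenib: TRIB3 (2.04 ± 0.26 from givinostat, -0.17 ± 0.26 from sorafenib), DDIT3 (2.06 ± 0.32 and 0.34 ± 0.32), ALOX5AP (1.66 ± 0.17 and 0.02 ± 0.17), CCPG1 (1.67 ± 0.23 and 0.00 ± 0.23), HK2 (-1.05 ± 0.21 and 0.36 ± 0.21), PGK1 (-0.88 ± 0.14 and 0.23 ± 0.14), FASN (-0.93 ± 0.11 and -0.12 ± 0.11), INSIG1 (-1.18 ± 0.19 and 0.13 ± 0.19) and CISH (-1.33 ± 0.24 and -0.51 ± 0.24). Their limma adjusted p-values against givinostat were 0.0027 to 0.033.

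A second set differed from sorafenib and not detectably from givinostat. RAPH1 was 1.82 ± 0.22 above sorafenib and 0.12 ± 0.22 from givinostat, ITGB1 1.02 ± 0.13 and 0.10 ± 0.13, and ATF5 -1.94 ± 0.34 and -0.32 ± 0.34. Probes detected on 1 of the 3 sorafenib arrays were those of ETV5 (2.02 ± 0.29 above sorafenib and 0.01 ± 0.29 from givinostat) and COBLL1 (3.06 ± 0.53 and 1.05 ± 0.53). ANKRD22, whose tested probe no sorafenib array detected, was at least 2.37-fold higher than with sorafenib and 0.17 ± 0.28 from givinostat. S100P, detected on 0 combination and 2 givinostat arrays, was at least 2.42-fold lower than with sorafenib, and its difference from givinostat did not pass. Their limma adjusted p-values against sorafenib were 0.014 to 0.0397. A difference that did not pass does not show that the 2 treatments act alike. TNFRSF21 had changes against control of 1.59 for givinostat, 1.28 for sorafenib and 2.56 for the combination, and did not differ from either drug by a margin that passed (0.97 from givinostat, limma adjusted p = 0.125, and 1.28 from sorafenib, 0.108). STAT4 had 1.26, 1.17 and 1.65, and LTA -2.25, -0.67 and -2.42.

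**Figure D5:**
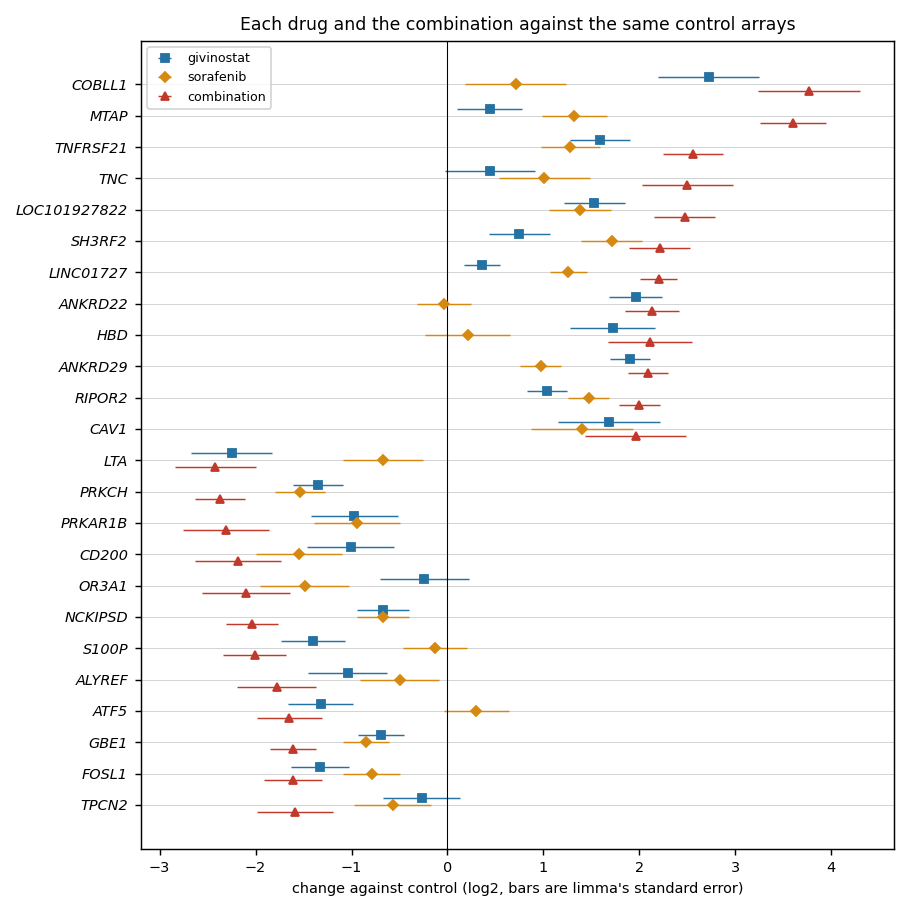
Change against the same control arrays (x axis, log2, with bars of limma's standard error) for givinostat (blue squares), sorafenib (orange diamonds) and the combination (red triangles), for the 12 largest rises and 12 largest falls of the combination; probes that a group did not detect are plotted at their measured value, where the text gives bounds. MTAP stands apart from both single drugs, COBLL1, ANKRD22, S100P and ATF5 lie nearer to givinostat, and TNFRSF21 lies above both.

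For the gene lists, the glycolysis median was -0.12 with givinostat, -0.71 with sorafenib and -0.45 with the combination, and the sterol synthesis median -0.01, -0.58 and -0.45. The ATF4 list had medians of -0.40, 0.55 and 0.29, and its 4 genes that differed from givinostat were all higher in the combination. Replication-dependent histone genes had medians of 0.23, -0.86 and -0.75, and H1-2 changes of 0.59, -1.79 and -1.01. The proteasome median was -0.04, -0.09 and -0.29 and that of ribosome biogenesis -0.14, -0.09 and -0.33. Differences between list medians were not tested.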

How the data were processed

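Per the labels' protocols, total RNA was extracted with Trizol, cleaned on a column and labelled as biotinylated cRNA; BeadStudio, without a version, is the tool named in the submitters' processing notes. The deposited raw table gives, for each of 48803 probes and 12 arrays, an average bead intensity on the linear scale, not normalized, per the file headers. Its second column per array, a fraction headed as a detection p-value, rose with intensity and was therefore taken as 1 minus a detection p. The series matrix, also deposited, holds quantile normalized intensity values, whose method is not given in the sources used here, and served as an alternative.

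The raw intensities were background corrected and quantile normalized to log2 values with neqc (limma 3.58.1, R 4.3.3, offset 16). Kept probes (11801) had a detection p below 0.05 on every array of 1 group or more. Gene symbols came from the platform annotation, which can be old: 28098 probes had 1 symbol, 13 several and 20692 none listed; 28059 matched the RefSeq gene table (GRCh38.p14, used for names) and 0 symbols were updated. The brightest probe per gene gave 8079 genes. limma's lmFit and eBayes were fitted over all 12 arrays with 1 coefficient per group (8 residual degrees of freedom), and p-values were adjusted by Benjamini-Hochberg over all 8079 genes at a threshold of 0.05. All p-values called limma's are from this fit, and those of fits without 1 array are limma's too. A fold is 2 raised to the log2 change. Where no array of the lower group detected the probe, "at least" gives the fold with those arrays at their detection limit. If only some of those arrays detected it, the log2 change includes levels under the detection limit on the others. The number of arrays limits the precision.

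Named were the 12 largest rises and falls with groups that do not overlap, up to 4 genes that passed per list, and a fixed set of apoptosis, cell cycle, deacetylase and stress genes; genes named beyond this rule are said to be so where they appear. A gene of that set is not reported here. The members and the 60 gene lists were chosen with earlier results of these data known. List counts and medians are descriptions without a set test. A list count is to be read beside the 7.37% of the 7612 genes that changed. The script was also run on simulated data for 8079 genes. It recovered 59.0% of 100 genes shifted by 1 log2 unit and 90.0% of 100 shifted by 2, with 21 false calls. This checks the code and not the calls above. Alternatives covered background, scaling, filter, probe choice, array weights, the letter as a block, and each array left out.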

Additional observations from a re-analysis of the deposited data

How the results depend on the processing

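Of 7612 genes, 561 changed against control (323 higher, 238 lower), and 487 of those detected on all 6 arrays. The 124 named genes that passed (105 by the rule and 19 beyond it) kept their direction in every alternative run that tested them. Of the 124, 0 passed in every alternative, and the letter as a block over the 2 groups compared left 0 calls. The counts of 561 and 487 became 144 and 113 with the 6 compared arrays alone (102 higher, 42 lower of the 144). They were 176 and 141 with no filter on dim probes, where more genes are tested. They were 807 and 744 with no background correction and 807 and 746 in the series matrix values, and between 443 and 813 for the first count with array median scaling, cyclic loess, normexp on the intensities alone, stricter filters, other probe choices or array weights. Leaving out 1 array gave 197 to 540 and 164 to 469.

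Against givinostat (131) and sorafenib (27), the 2 compared groups alone gave 5 and 0, no background correction 365 and 96, the series matrix 364 and 98, detection p under 0.01 on all 12 arrays 267 and 45, detection on all 6 arrays 207 and 48, no filter 33 and 7, and normexp on the intensities alone 49 against sorafenib. Leaving out 1 array gave 14 to 134 and 0 to 30. The causes were not tested.

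Deviations of same-letter arrays from their group means correlated across genes at 0.177 to 0.408 among control, givinostat and sorafenib. Between control and combination they correlated at 0.310 (A), -0.138 (B) and -0.085 (C). Combination B correlated better with array C of control (0.316), givinostat (0.261) and sorafenib (0.158) than with their array B. Combination C correlated better with their array B (0.255, 0.290 and 0.234) than with their array C. Whether letters B and C of the combination are exchanged was not tested. The main fit has no term for the letter, and the block fits use the letters as given. The groups are the same whichever letter a combination array bears, so the fits without a block do not depend on this, and no crossed pairing was fitted. With the letter as a replicate block over all 12 arrays the counts were 1060 and 939 against control, 575 against givinostat and 166 against sorafenib; with the block over the 2 groups compared all 4 were 0. JUNB, TNFRSF8 and CDKN1A passed with the block over all 12 arrays (adjusted p = 0.00336, 0.0178 and 0.0289) and not with that over the 2 groups (0.104, 0.106 and 0.152).

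Changes that did not pass reversed for BCL2 (0.16 with the mean of its probes; -0.17 to 0.05 without 1 array, the latter without combination B), ATF4 (-0.01 with the mean of its probes), BCL2L1 (-0.35 to 0.06, the latter without control A), RIPK3 (-0.10 without control C and -0.06 without combination A, up to 0.11) MLKL (-0.61 to 0.19, the latter without combination A), VEGFA (0.06 with array weights; -0.24 to 0.11 without 1 array, positive without control C, 0.04, and without combination A), GAPDH (0.19 with array median scaling, 0.11 with cyclic loess) and ENO1 (0.06 with array median scaling). Signal near background, above all on combination B, limits the genes detected in 1 group only.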
